A study of Mus musculus with 8 samples.

Results

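Apolipoproteins are the proteins that coat lipoprotein particles, keep their cholesterol and triglyceride soluble in plasma, and act as ligands or enzyme cofactors when lipid is delivered to cells. Liver and intestine make most of the plasma pool, and macrophages and other cells add Apoe. The gallbladder stores bile, the route by which the body disposes of cholesterol, and its epithelium takes up lipid from bile and passes it on to lipoproteins. The 10 apolipoprotein genes described here are Apoa1, Apoa2, Apoa4, Apoa5, Apob, Apoc1, Apoc2, Apoc3, Apoe and Apom. They were chosen by name, and every probe set annotated to exactly 1 of these symbols was used, which gave 16 of the 45101 probe sets on the array and 10 of the 18193 genes it names.

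The RNA came from gallbladders of 12-week-old female B6.V-lepob mice, an obese strain in which the leptin gene is mutated in treated and control animals alike. The leptin group received recombinant mouse leptin at 5 µg per g body weight by daily intraperitoneal injection for 4 weeks, and the saline group received saline on the same schedule. Each group had 12 mice, combined after an overnight fast into 4 pools of 3 gallbladders, named here leptin 5 to 8 and saline 1 to 4 as in the labels. Each pool was read on 1 Affymetrix murine 430 2.0 array, so a value averages 3 animals and the p-values measure the spread between 4 pools a group.

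All arrays carried strong signals of both gallbladder epithelium and hepatocytes. Of 17 gallbladder epithelium markers, all tested, 3 keratins fell and 1 gene rose. The log2 fold changes were -0.96 ± 0.16 for Krt7 (limma adjusted p = 0.00408), -0.58 ± 0.10 for Krt8 (limma adjusted p = 0.0051), -0.35 ± 0.089 for Krt18 (limma adjusted p = 0.0350) and 1.99 ± 0.19 for the mucosal peptide Tff2 (limma adjusted p = 6.04e-05). Krt19 (-0.40 ± 0.11, limma adjusted p = 0.0506) and the mucin Muc1 (0.028 ± 0.10) were the brightest of that list that did not pass. The summed signal of the list was 42034 to 47092 in leptin pools and 47423 to 58814 in saline pools. The summed signal of 22 hepatocyte markers was 172193 to 224117 in leptin pools and 150303 to 238991 in saline pools, and none of the 22 passed the test. Alb, the main plasma protein made by hepatocytes, had signals of 18355 to 19377 in leptin pools and 14896 to 21696 in saline pools. Of 7 enterocyte markers tested, 0 passed by limma. The brightest, Fabp2 and Vil1, lay above background in every pool. Fabp2 had signals of 687 to 1416 in leptin pools and 660 to 1430 in saline pools. Vil1 had signals of 484 to 732 in leptin pools and 685 to 1048 in saline pools. The intestinal transcription factor Cdx2, too dim to be tested, lay under background in 2 leptin and 4 saline pools. Macrophage markers were higher with leptin for 13 of 15 tested genes, with summed signals of 16129 to 20411 in leptin pools and 7647 to 9423 in saline pools. Those of lowest p were Tyrobp (1.89 ± 0.13), Laptm5 (1.82 ± 0.15), C1qa (1.496 ± 0.16) and Ctss (1.54 ± 0.17), on the log2 scale. Adipocyte markers fell for 3 of 10, namely Cidea (-2.41 ± 0.41), Cidec (-2.03 ± 0.26) and Plin4 (-1.09 ± 0.25). Their list median was -0.67, with summed signals of 4923 to 7366 in leptin pools and 5764 to 15806 in saline pools. The brightest, Fabp4 (-0.76 ± 0.27, limma adjusted p = 0.113), did not pass. Neither did the defining adipocyte marker Adipoq (-0.27 ± 0.51, limma adjusted p = 0.793). Of 9 smooth muscle markers, Smtn rose (0.65 ± 0.14) and Actg2 fell (-0.58 ± 0.14). Leptin 7 stood apart on the second principal component, at -49.1 against -12.6 to 23.7 for the other pools. In such bulk samples, fewer cells of a type and less RNA per cell cannot be told apart.

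Promoter sequence is shown for the 3 genes that passed the test, as the 200 bases before the gene's start on its own strand (RefSeq, GRCm38.p6). Capitals mark 6-base cores of the kind that nuclear receptors bind, namely AGGTCA, its variant GGGTCA, and the further variants AGTTCA and also GGTTCA, on either strand. Apoa1 lies at chr9:46228430-46228629 on the plus strand, Apoa4 at chr9:46240644-46240843 on the plus strand and Apom at chr17:35131802-35132001 on the minus strand.
Apoa1: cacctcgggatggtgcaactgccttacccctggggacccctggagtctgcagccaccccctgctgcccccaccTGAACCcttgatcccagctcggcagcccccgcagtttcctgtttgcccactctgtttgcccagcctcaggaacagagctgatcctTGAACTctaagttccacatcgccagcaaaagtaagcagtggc
Apoa4: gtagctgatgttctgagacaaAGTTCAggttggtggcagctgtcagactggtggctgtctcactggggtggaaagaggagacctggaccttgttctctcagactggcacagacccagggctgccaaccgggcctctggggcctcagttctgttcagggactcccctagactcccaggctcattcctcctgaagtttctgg
Apom: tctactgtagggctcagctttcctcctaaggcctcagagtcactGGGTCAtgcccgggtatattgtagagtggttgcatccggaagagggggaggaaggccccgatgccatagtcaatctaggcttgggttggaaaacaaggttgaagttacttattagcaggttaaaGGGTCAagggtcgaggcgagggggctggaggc
The Apoa1 matches lie 127 and 42 bases before the start, the Apoa4 match 179 bases before it, and the Apom matches 156 and 32 bases before it. Of the 10 genes, 8 had promoter windows of 250 bases, 12 in all since some genes have several starts. AGGTCA was in 2 of these 12 windows, of Apoa2 and Apoc2, against 14.02% of 32851 windows of that length. TATAAA was in 5 of 12 windows against 12.37%, GTTAAT in 2 of 12 against 6.432%, and CCAAT in 2 of 12 against 33.85%. At least 1 of the 4 core spellings was in 11 of 12 windows against 38.64%, but the 3 spellings other than AGGTCA were added after the sequences were seen, so nothing is read from that share. Apoc1 and Apoc3 were not matched to a window. These matches describe letters, not binding.

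With leptin, 2 of the 10 genes rose (Apoa1 and Apom) and 1 fell (Apoa4), each gene judged by its brightest probe set, against 8.27% of 11719 tested genes called in either direction (4.29% higher, 3.98% lower). All 16 probe sets passed the filter on dim signals, and none was under background on any array. Among probe sets, 7 of 16 passed the test, 5 higher and 2 lower, against 6.93% of 22519 (3.54% higher, 3.39% lower) called by limma with Benjamini-Hochberg adjustment over all of them. The fold changes are leptin minus saline on the log2(signal + 8.2) scale, with n = 4 pools a group. The split of called members depended on the setting: 3 higher and 5 lower under median centring of the arrays, 2 higher and 5 lower without saline 1, and 0 higher and 3 lower by limma with an actin ratio as covariate. The median over the 10 genes was -0.10, with 4 positive and 6 negative, beside 0.020 over all tested genes. In 4 of 16 probe sets every leptin pool lay above every saline pool, against 8.12% of all tested probe sets. These were Apoa1 1455201_x_at and 1419232_a_at and both probe sets of Apom. By brightest probe set, only Apom was so separated. Probe sets of the same gene are not independent, so the counts of probe sets overstate the number of genes. In none of the 16 did every leptin pool lie below, against 7.4%.

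**Figure D1:**
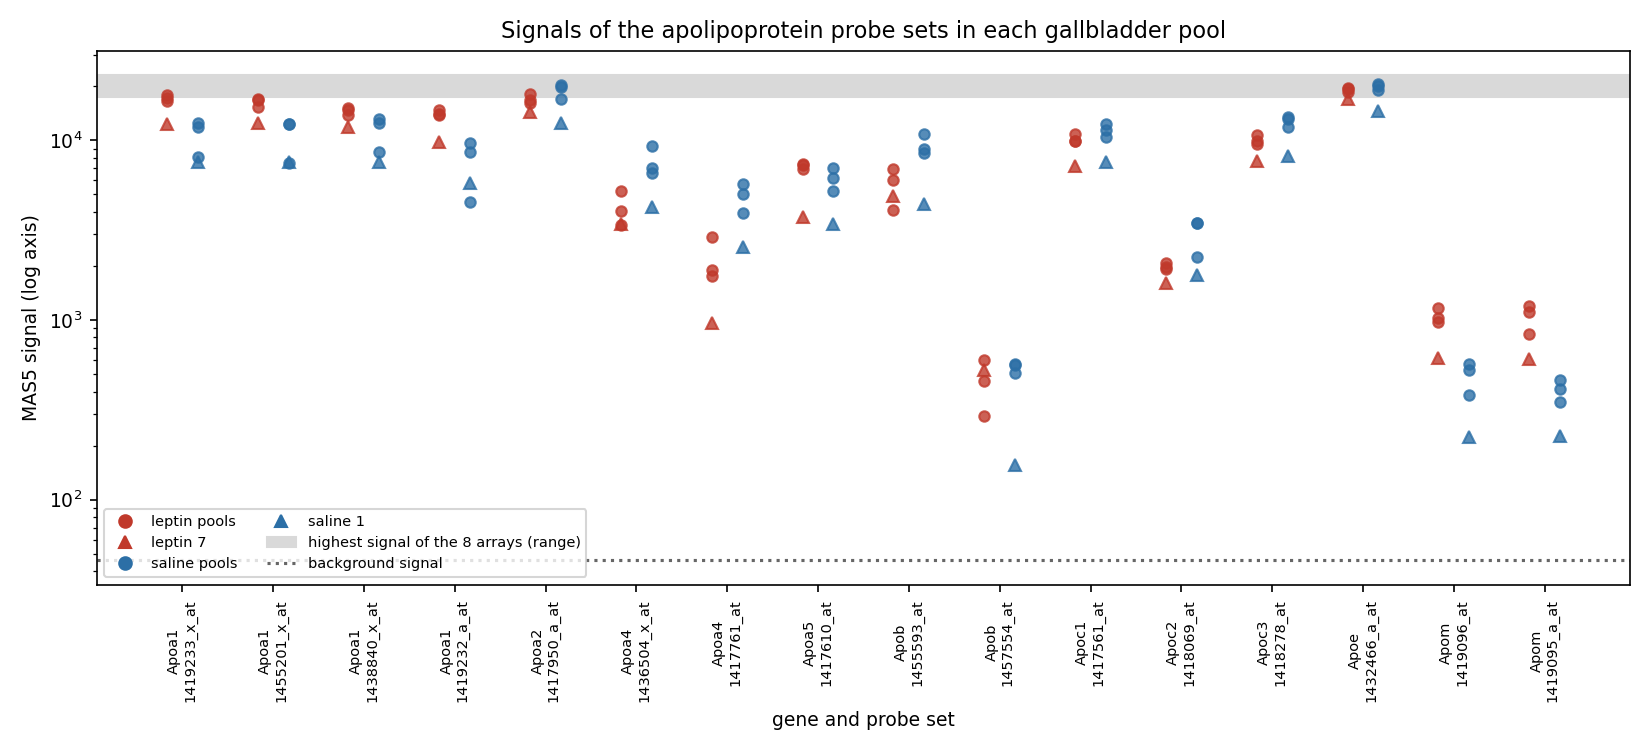
MAS 5.0 signal (log axis) of each apolipoprotein probe set in every pool, with leptin pools drawn left of saline pools; points are pools, triangles mark leptin 7 and saline 1, the grey band is the range of the 8 arrays' highest signals and the dotted line the background of 46.0. Both Apom probe sets sit higher in every leptin pool, while Apoe and Apoa2 overlap near the top of the array range.

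Apoa1, the main structural protein of high-density lipoprotein and the acceptor of cholesterol exported from cells, was read by 4 probe sets. The brightest, 1419233_x_at, had signals of 17814, 16558, 12384 and 17306 in leptin 5 to 8, against 7538, 11944, 12464 and 8103 in saline 1 to 4. Only leptin 7 reached down into the saline range, where it lay just under saline 3. Apoa1 rose by this probe set, with a log2 fold change of 0.70 ± 0.17 (SE; limma adjusted p = 0.0268). By 1419232_a_at the signals were 14034, 13797, 9761 and 14682 in leptin pools, against 5768, 9645, 8609 and 4541 in saline pools. Here the groups did not overlap, although leptin 7 and saline 2 were close. This probe set gave a log2 fold change of 0.92 ± 0.21 (limma adjusted p = 0.0208), and 1455201_x_at gave 0.67 ± 0.17 (limma adjusted p = 0.0374). The fourth, 1438840_x_at, had a log2 fold change of 0.44 ± 0.16 and did not pass (limma adjusted p = 0.126). The call of 1419233_x_at was lost on leaving out saline 1, saline 4, leptin 5, leptin 6 or leptin 8, with log2 fold changes of 0.57 to 0.82 and limma adjusted p of 0.0128 to 0.0788 over all 8 omissions. The call of 1455201_x_at was lost without the same 5 pools (limma adjusted p of up to 0.0974), and that of 1419232_a_at without 4 of them, all but saline 4 (up to 0.0615). Over 11 other settings, the call of 1419233_x_at, on which the gene is counted, held in 7. It missed under median centring (0.45, limma adjusted p = 0.0774), with no filter (limma adjusted p = 0.0755) and without the mean-variance trend (limma adjusted p = 0.0820). It also missed with the actin ratio as covariate, given below.

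Apoa2, the second protein of high-density lipoprotein, had signals of 18101, 16203, 14435 and 16799 in leptin pools, against 12478, 19790, 20323 and 16904 in saline pools. The leptin pools all fell inside the saline range. The log2 fold change was -0.06 ± 0.14 (limma adjusted p = 0.823), with a 95% interval of -0.37 to 0.24.

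Apom, a lipocalin of high-density lipoprotein that carries sphingosine-1-phosphate, had the largest rise among the 16 probe sets. By 1419095_a_at its signals were 837, 1108, 610 and 1196 in leptin pools, against 225, 415, 465 and 350 in saline pools. By 1419096_at they were 978, 1021, 614 and 1167 in leptin pools, against 224, 568, 525 and 382 in saline pools. Leptin 7 was the lowest leptin pool by both probe sets and saline 1 the lowest saline pool, and the groups did not overlap. The log2 fold changes were 1.35 ± 0.24 (limma adjusted p = 0.00541) and 1.18 ± 0.27 (limma adjusted p = 0.0196). The first call held on leaving out each of the 8 pools (log2 fold change 1.14 to 1.54). The second was lost without saline 4, leptin 6 or leptin 8, with limma adjusted p of up to 0.0591. It was also lost without the mean-variance trend (limma adjusted p = 0.0536). Both calls were lost with the actin ratio as covariate, given below.

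Apoa4, a protein of chylomicrons and high-density lipoprotein made mainly by intestine and, in mice, also by liver, fell by both of its probe sets. By 1436504_x_at the signals were 5224, 3401, 3436 and 4042 in leptin pools, against 4269, 7043, 9279 and 6587 in saline pools. By 1417761_at they were 2899, 1911, 965 and 1767 in leptin pools, against 2554, 5050, 5703 and 3966 in saline pools. Leptin 5 overlapped saline 1 by both, and the other leptin pools lay below all saline pools. The log2 fold changes were -0.72 ± 0.20 (limma adjusted p = 0.0496) and -1.23 ± 0.29 (limma adjusted p = 0.0259). The call of 1417761_at was lost without saline 2, saline 3, saline 4, leptin 6 or leptin 8, with limma adjusted p of up to 0.0731. That of 1436504_x_at was lost on leaving out any of these 5 pools or leptin 7, with limma adjusted p of up to 0.128. That brightest probe set, on which the gene is counted, also missed the threshold under 6 of 11 other settings: quantile scaling (-0.60, limma adjusted p = 0.0850), cyclic loess (-0.57, limma adjusted p = 0.0984), a pseudocount of 1 (limma adjusted p = 0.0512), no filter (limma adjusted p = 0.0966), no mean-variance trend (limma adjusted p = 0.114) and robust eBayes (limma adjusted p = 0.0665).

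Apoa5, a hepatic activator of triglyceride breakdown by lipoprotein lipase, had signals of 7337, 6929, 3726 and 7377 in leptin pools, against 3444, 6159, 7058 and 5209 in saline pools. Leptin 5 and leptin 8 lay above all saline pools, and leptin 6 and leptin 7 lay within their range. Its log2 fold change was 0.21 ± 0.24 (limma adjusted p = 0.634; 95% interval -0.30 to 0.72). Apoa1, Apoc3, Apoa4 and Apoa5 follow one another on chromosome 9 with no other protein-coding gene between them in RefSeq. Within this cluster, Apoa1 rose, Apoa4 fell, and the other two did not pass; no test of the difference between genes was made.

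Apob, the structural protein of very low-density lipoprotein and chylomicrons, was read by 2 probe sets. By 1455593_at the signals were 4076, 6020, 4900 and 6942 in leptin pools, against 4398, 8479, 10900 and 8995 in saline pools. Saline 1 lay within the leptin range, and the other saline pools lay above it. The log2 fold change was -0.53 ± 0.24 (limma adjusted p = 0.199), with an unadjusted 95% interval of -1.05 to -0.017. The dimmer 1457554_at had signals of 291 to 600 in leptin pools and 155 to 567 in saline pools, with a log2 fold change of 0.18 ± 0.36 (limma adjusted p = 0.799). Without saline 1, 1455593_at passed, with a log2 fold change of -0.81 (limma adjusted p = 0.0152). It did not pass on leaving out any other pool (limma adjusted p of up to 0.390).

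The C apolipoproteins are small exchangeable proteins that tune lipoprotein lipase: Apoc2 is its cofactor, Apoc3 its inhibitor, and Apoc1 also slows uptake of remnants. Apoc2 had signals of 2090, 1912, 1602 and 1986 in leptin pools, against 1789, 3490, 3448 and 2244 in saline pools. Saline 1 was the one saline pool within the leptin range. The log2 fold change of Apoc2 was -0.48 ± 0.19 (limma adjusted p = 0.152). Apoc3 had signals of 9963, 9524, 7718 and 10704 in leptin pools, against 8198, 13121, 13581 and 11870 in saline pools, again with saline 1 alone inside the leptin range. Its log2 fold change was -0.29 ± 0.15 (limma adjusted p = 0.282). Apoc1 had signals of 7200 to 10787 in leptin pools and 7630 to 12355 in saline pools, with a log2 fold change of -0.14 ± 0.16 (limma adjusted p = 0.628). Without saline 1, Apoc2 (-0.67, limma adjusted p = 0.0316) and Apoc3 (-0.45, limma adjusted p = 0.0372) passed. Neither passed on leaving out any other pool (limma adjusted p of up to 0.346 for Apoc2 and 0.507 for Apoc3).

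Apoe, the ligand by which remnants are cleared and a product of both hepatocytes and macrophages, had signals of 19541, 18580, 17062 and 19389 in leptin pools, against 14539, 20161, 20705 and 18961 in saline pools. Saline 1 was the lowest pool and saline 3 the highest, and the leptin pools lay between them. The log2 fold change was 0.02 ± 0.11 (limma adjusted p = 0.951; 95% interval -0.23 to 0.26). The macrophage markers given above were higher with leptin; their part in the Apoe signal was not tested.

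**Figure D2:**
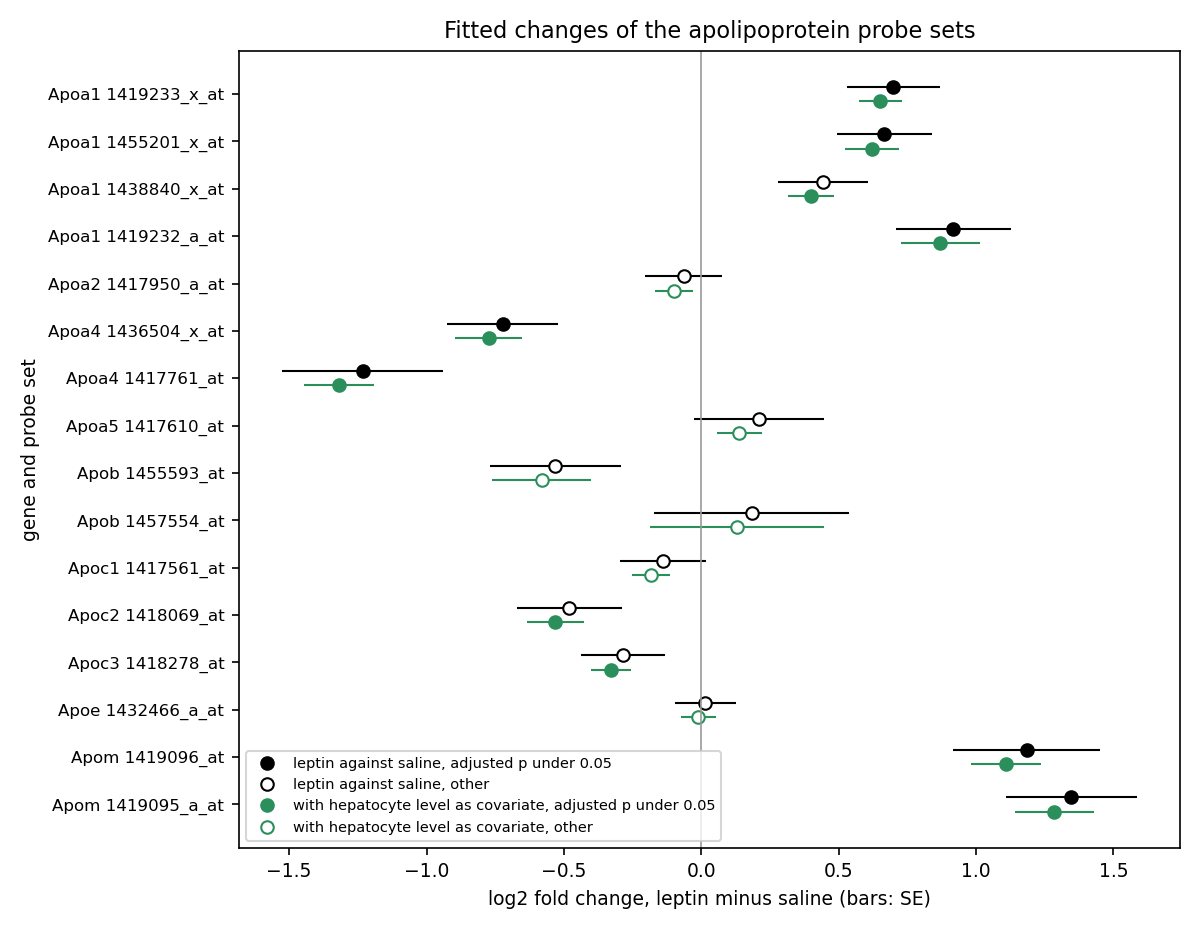
Log2 fold change (leptin minus saline) of the 16 apolipoprotein probe sets in black, and with the hepatocyte level as covariate in green; bars are the SE, and filled points have a limma adjusted p under 0.05. Filled black points lie right of 0 for Apoa1 and Apom and left of 0 for Apoa4.

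Several of these signals lay near the top of the array range. The highest signal on an array was 17368 to 23116, and Apoe reached 78.8% to 97.2% of it, ranking 2 to 9 of 45037 probe sets without controls. Apoa2 ranked 4 to 24 and reached 66.7% to 95.5% of the array's highest signal. The brightest Apoa1 probe set ranked 8 to 271. Over the 8 pools, the highest signal of Apoe was 1.42 times its lowest, and that of Apoa2 was 1.63 times. The same ratio was 1.46 for Alb and 1.40 for Ttr, a hepatic carrier of thyroid hormone, which also lie at the top. Some less bright hepatocyte markers had ratios as low, among them Ambp (1.22), Cyp3a11 (1.41), Cyp2e1 (1.44) and Fga (1.44), chosen after their values were seen. Others of like brightness had higher ratios, among them Fabp1 (2.22), Fgb (2.06) and Hpx (1.80), chosen in the same way. The ratio was 5.21 and 5.31 for the Apom probe sets and 2.73 and 5.91 for those of Apoa4, whose signals were lower. It was 2.36 for the bright Apoa1 1419233_x_at. Over all 8 pools the ratio includes any difference between treatments. Within leptin and within saline pools it was 1.90 and 2.54 for Apom 1419096_at and 1.96 and 2.06 for 1419095_a_at. Those ratios were 1.54 and 2.17 for Apoa4 1436504_x_at and 3.00 and 2.23 for 1417761_at. For Apoa1 1419233_x_at they were 1.44 and 1.65, and for Apoe 1.15 and 1.42. Whether the brightest probe sets were saturated was not tested, since the table holds no scanner flags.

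**Figure D3:**
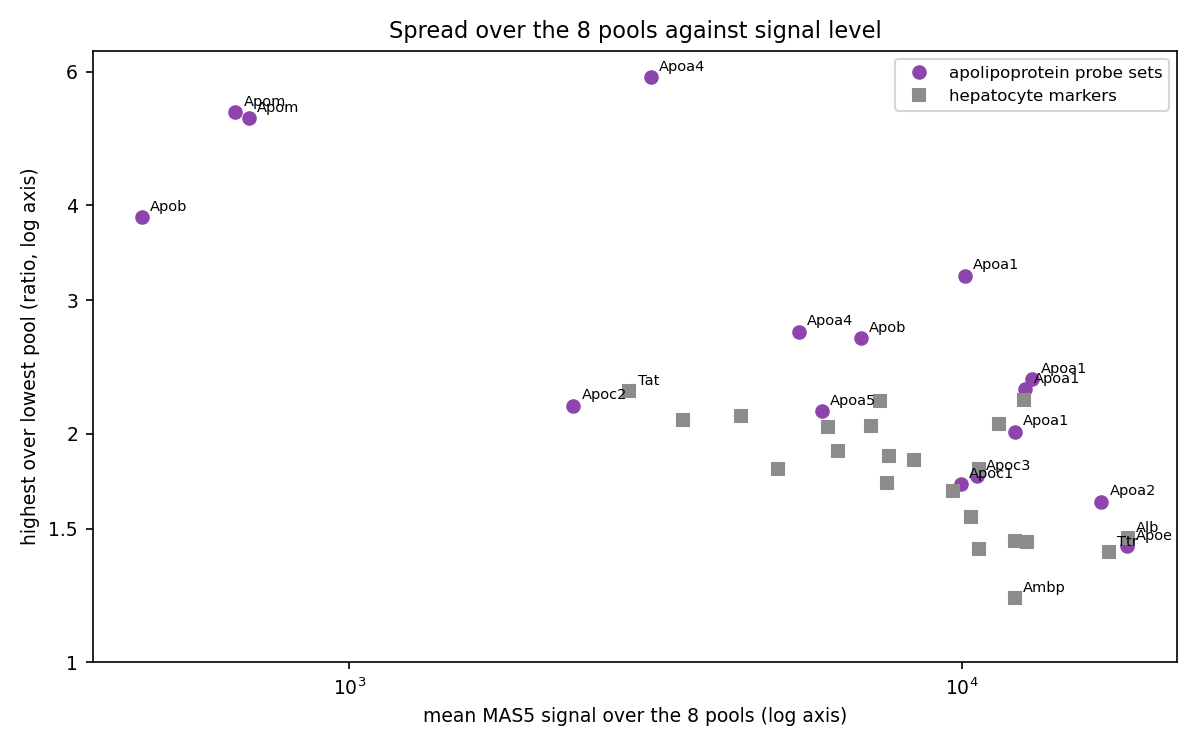
Ratio of the highest to the lowest of the 8 pools against mean signal (both axes log) for apolipoprotein probe sets and hepatocyte markers. Apoe, Apoa2, Alb and Ttr lie at the bright end with ratios of 1.40 to 1.63, and both Apom probe sets and 1 of Apoa4 reach above 5. The ratio includes any difference between treatments.

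Within each treatment, apolipoprotein signals varied with the hepatocyte marker level of a pool. The mean log2 value of the 22 hepatocyte markers was 13.20, 13.12, 12.68 and 13.13 in leptin pools, against 12.57, 13.18, 13.27 and 12.94 in saline pools. Leptin 7 and saline 1 were the lowest of their groups, and a two-sided exact permutation test between the groups gave p = 0.8286. After each treatment's mean was subtracted, Pearson correlation with this level over the 8 pools was 0.98 for Apoa5, 0.97 for Apoc1 and 0.96 for Apom 1419096_at, and lowest for Apob 1457554_at at 0.50. The next lowest were Apob 1455593_at at 0.67 and Apoa1 1419232_a_at at 0.76. These points share arrays and scaling, and the correlations are descriptive. None was computed without leptin 7 and saline 1, so how far they rest on these pools is not known.

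Fitted with this level as a covariate, an alternative added after seeing the data, 5 of 10 genes passed, against 11.8% of all tested genes, and 10 of 16 probe sets, against 9.96%. Of these 10, 6 were higher and 4 lower, against 4.67% higher and 5.29% lower over all probe sets. Apoa1 1419233_x_at had a log2 fold change of 0.65 ± 0.078 (limma adjusted p = 0.000218). Apom 1419096_at had 1.11 ± 0.13 (limma adjusted p = 0.00016), and Apoa4 1417761_at had -1.32 ± 0.13 (limma adjusted p = 3.55e-05). Apoc2 (-0.53 ± 0.10, limma adjusted p = 0.00735) and Apoc3 (-0.33 ± 0.073, limma adjusted p = 0.0142) also passed, lower with leptin. Of the hepatocyte markers that make up the level, Fabp1 was higher in this fit (0.30, limma adjusted p = 0.0290). Tdo2 was lower (-0.49, limma adjusted p = 0.00137), and the others did not pass. Relative to the marker level, Apoa1 1419233_x_at was 0.92, 0.90, 0.92 and 0.95 log2 units above it in leptin pools, against 0.31, 0.37, 0.34 and 0.05 in saline pools. On that scale Apoa1 and Apom lay higher in every leptin pool by all their probe sets, 6 of 16, against 3.32% of all tested probe sets. Apoa4, Apoc1, Apoc2 and Apoc3 lay lower in every leptin pool, 5 of 16 probe sets against 3.09%, and Apoa2, Apoa5, Apob and Apoe overlapped.

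**Figure D4:**
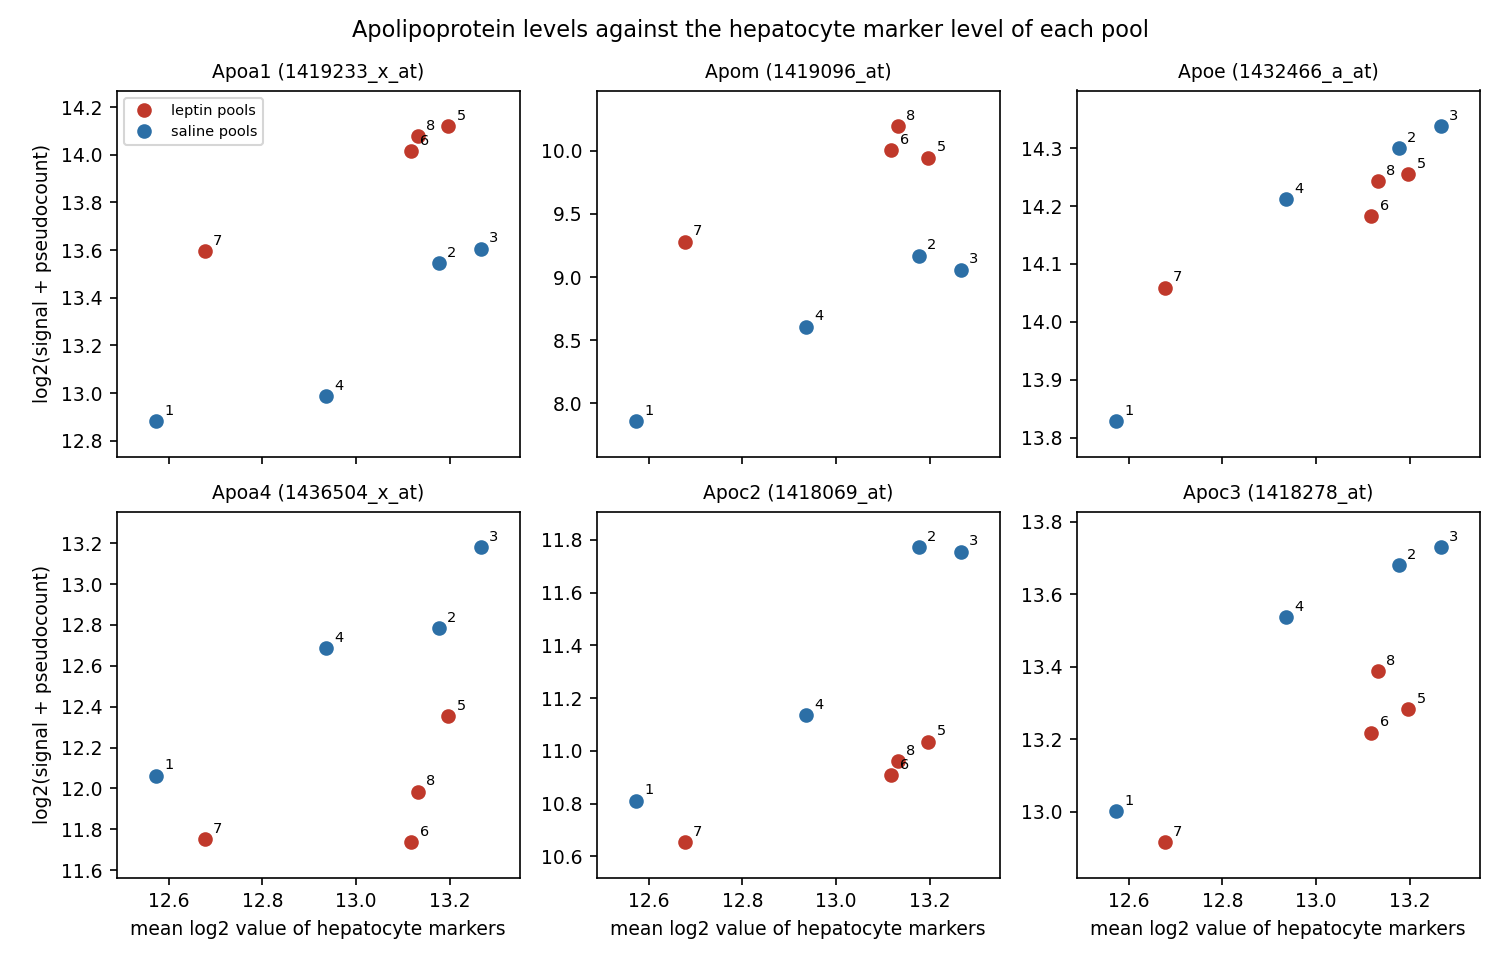
Log2 value of apolipoprotein probe sets against the mean log2 value of 22 hepatocyte markers in each pool, leptin and saline drawn in separate colours. At a like marker level, Apoa1 and Apom sit higher and Apoa4 lower in leptin pools.

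One of 2 measures of RNA integrity was higher in most leptin pools without passing the test. The ratio of 3' to 5' signal of actin was 1.89 ± 0.207 in leptin pools and 1.60 ± 0.0882 in saline pools (SD, n = 4 each; exact permutation p = 0.0571, 0.0952 adjusted over 5 measures), and the groups overlapped. The same ratio of GAPDH was 0.818 ± 0.0248 in leptin pools and 0.813 ± 0.0409 in saline pools (exact permutation p = 0.857). The median signal of an array was 94.0 to 107 in leptin pools and 77.8 to 87.3 in saline pools. The share of probe sets above background was 68.4% to 71.0% in leptin pools and 63.3% to 66.9% in saline pools. On both measures the groups did not overlap (exact permutation p = 0.0286 each, 0.0714 adjusted over 5 measures). The part of these measures in the calls was not tested. With the actin ratio as a covariate, 2.9% of all probe sets were called. Apoa1 1419233_x_at then had a log2 fold change of 0.22 (limma adjusted p = 0.549) and the brightest Apom probe set, 1419096_at, 0.54 (limma adjusted p = 0.397), with 0.92 for 1419095_a_at (limma adjusted p = 0.149). The brightest Apoa4 probe set, 1436504_x_at, had -1.31 (limma adjusted p = 0.00621), and 1417761_at had -2.31 (limma adjusted p = 3.44e-05). Apoc2 passed as well, at -0.96 (limma adjusted p = 0.0410). Of 11 other pathway genes called without the covariate, 2 (Cd36 and Nr2f2) kept their call in that fit. With 8 pools, the parts of treatment and of the actin ratio cannot be told apart.

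Other genes of the pathway were read from lists by role, and their counts stand beside the 4.29% higher and 3.98% lower of all tested genes. Of 16 other tested genes named for apolipoproteins or carried on lipoproteins, 3 rose and 1 fell, with a median log2 fold change of 0.17. Saa1, an acute-phase protein carried on high-density lipoprotein, had signals of 4704, 9285, 4895 and 7544 in leptin pools, against 828, 868, 3081 and 1690 in saline pools. Every leptin pool lay above every saline pool, with a log2 fold change of 2.18 ± 0.36 (limma adjusted p = 0.00315). Its paralog Saa2 rose by 2.29 ± 0.38 (limma adjusted p = 0.0033), and the 2 near-identical genes may not be separated by their probes. Apobr, a receptor for Apob-containing remnants, rose by 0.44 ± 0.12 (limma adjusted p = 0.0445), and Apold1, an endothelial gene, had a log2 fold change of -0.88 ± 0.19 (limma adjusted p = 0.0154). Clu (-0.0041) and Apoh (-0.012), the brightest of the list that did not pass, had log2 fold changes near 0. The calls of Saa1 and Saa2 held on leaving out each of the 8 pools, but not with the actin ratio as covariate (limma adjusted p = 0.0621 and 0.0600). That of Apold1 was lost without saline 2 (limma adjusted p = 0.0545), and that of Apobr on leaving out any 1 pool (log2 fold change 0.40 to 0.47, limma adjusted p of 0.0538 to 0.126). Over 11 other settings, the Apold1 call held in 10 (limma adjusted p of up to 0.0769). The Apobr call held in 7 of them (limma adjusted p of up to 0.397).

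Of 19 tested genes of lipoprotein assembly and remodelling, 1 rose and 0 fell by limma, with a median log2 fold change of -0.07. Pltp, which transfers phospholipid between lipoproteins, had a log2 fold change of 0.56 ± 0.15 (limma adjusted p = 0.0460), with overlapping pools. P4hb, a subunit of the complex that loads lipid onto Apob, had -0.27 ± 0.093 and Sar1b, which moves chylomicrons out of the endoplasmic reticulum, had -0.31 ± 0.13, and neither passed. The Pltp call held without saline 3 or leptin 5 and was lost on leaving out any other pool (log2 fold change 0.43 to 0.66, limma adjusted p of up to 0.121). Over 11 other settings, the Pltp call held in 7 (limma adjusted p of up to 0.173).

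Of 15 tested receptors and cholesterol exporters, 3 rose and 1 fell, with a median log2 fold change of 0.20. Abca1, which loads cell cholesterol onto Apoa1, had signals of 2078, 2070, 1738 and 1980 in leptin pools, against 1122, 1420, 1500 and 994 in saline pools. The groups did not overlap, and Abca1 rose by 0.66 ± 0.14 (limma adjusted p = 0.0139). Abcg1, an exporter to high-density lipoprotein, rose by 0.74 ± 0.14 (limma adjusted p = 0.00925), and the macrophage scavenger receptor Msr1 rose by 0.71 ± 0.16 (limma adjusted p = 0.0201). Cd36, a fatty acid and lipoprotein receptor also of adipocytes, had a log2 fold change of -0.49 ± 0.14 (limma adjusted p = 0.0472). Sdc1 (-0.13) and Sorl1 (0.35) did not pass. Macrophages express Abca1, Abcg1, Msr1 and Pltp, and the part of the higher macrophage markers in these 4 genes was not tested. Nor was that part tested for Apobr, given above. Only some adipocyte markers fell, as given above, and the part of adipocytes in the fall of Cd36 was not tested. The calls of Abca1 and Abcg1 held without each of the 8 pools but not with the actin ratio as covariate (Abca1 0.38, limma adjusted p = 0.276; Abcg1 0.60, limma adjusted p = 0.156). Abca1 also missed under median centring (0.41, limma adjusted p = 0.0671). The Msr1 call was lost without leptin 5 (limma adjusted p = 0.0509), under quantile scaling, cyclic loess or median centring (0.0696, 0.0612 and 0.0786) and with the actin ratio (0.158). That of Cd36 held without saline 4 and was lost on leaving out any other pool (log2 fold change -0.58 to -0.41, limma adjusted p of up to 0.131). Over 11 other settings, the Cd36 call held in 7 (limma adjusted p of up to 0.130).

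Of 19 tested regulators of apolipoprotein genes, 2 rose and 0 fell by limma, with a median log2 fold change of 0.015. Foxa3, a hepatic forkhead factor, rose by 0.81 ± 0.22 (limma adjusted p = 0.0453), and Nr2f2, an orphan nuclear receptor, rose by 0.46 ± 0.13 (limma adjusted p = 0.0466). Hnf4a, the nuclear receptor that drives many apolipoprotein promoters, had signals of 1380 to 1947 in leptin pools and 1369 to 2447 in saline pools and a log2 fold change of -0.13 ± 0.18. Creb3l3, an activator of Apoa4 in mouse liver, had a log2 fold change of -0.06 ± 0.22. The Foxa3 call held without saline 3 and was lost on leaving out any other pool (log2 fold change 0.63 to 1.02, limma adjusted p of up to 0.111). The Nr2f2 call held without saline 1 and was lost on leaving out any other pool (0.38 to 0.54, limma adjusted p of up to 0.122). Over other settings, the Foxa3 call held in 4 of 10 (limma adjusted p of up to 0.351). That of Nr2f2 held in 8 of 11 (limma adjusted p of up to 0.355).

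The probe sets most like the called members over the 8 pools were found by Pearson correlation of log2 values. The treatment difference was left in, and only the highest of all tested probe sets of other genes were kept. The correlations are descriptive, and regulation in common was not tested. For Apoa1 these were Wfdc21 (0.992), Saa4 (0.987) and Hao1 (0.985). For Apom they were Hao1 (0.983), AW112010 (0.977) and Saa4 (0.976). For Apoa4 they were Glud1 (0.980), Fmo5 (0.970) and Qdpr (0.969).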

How the data were processed

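The authors deposited 1 intensity per probe set and array on a linear scale, a MAS5 signal per the submitters' processing notes; its settings are not given in the sources used. Each array's 2% trimmed mean was 250.0, so a shift shared by all transcripts would not be seen. Arrays were rescaled to a common trimmed mean, taken to log2(signal + 8.2), the 10th percentile, and 22519 probe sets at or above the median mean level were tested after removing 64 controls. Dim genes' fold changes are understated by the added constant. The contrast of leptin over saline was fitted in R 4.3.3 with limma 3.58.1 (eBayes with trend, two-sided, Benjamini-Hochberg over all tested, threshold 0.05). Background was 46.0, the 95th percentile of 27 bacterial control probe sets. Annotation gave 1 symbol to 34958 probe sets, several to 932 and none to 9211; a gene outside the 10 was read by its brightest probe set.

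Members and lists were chosen with earlier results of these data known. All member probe sets are named; of other lists, every called gene up to 6 (otherwise 4 a direction by p) and up to 2 uncalled of highest mean signal; and, for called members, the 3 probe sets of highest correlation. Alternatives covered scaling, pseudocount, filter, variance model, array weights, covariates and leaving out pools. The fit was tested on simulated data.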

Additional observations from a re-analysis of the deposited data

Results flagged for a closer look

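Among 64 groups of 4 pools screened with Dixon's test, 4 held a pool far from the other 3; chance alone marks about 1 in 20 groups. Apoa1 1419232_a_at was marked in leptin pools (0.848), with leptin 7 at 9761 against 13800 to 14680. Apoa5 was marked in leptin pools (0.908), with leptin 7 at 3726 against 6929 to 7377. The mean log2 value of hepatocyte markers was marked in leptin pools (0.849), with leptin 7 at 12.68 against 13.12 to 13.2. Apob 1457554_at was marked in saline pools (0.909), with saline 1 at 155.3 against 505.1 to 567.3.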

How the results depend on the processing

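The 1561 called probe sets (798 higher, 763 lower) became 3992 under median centring (406 higher, 3586 lower, with the median of all tested at -0.21 on the log2 scale) and 654 with the actin ratio as covariate, and 884 to 1431 on leaving out 1 pool. The 7 called apolipoprotein probe sets became 4 with no filter, 1 without the mean-variance trend and 3 with the actin ratio, and 1 to 7 on leaving out 1 pool. The 11 called pathway genes became 7 with no filter, 6 without the trend, 7 with the actin ratio, 18 with the hepatocyte level, and 5 to 10 on leaving out 1 pool. Of the 11, 6 kept their call with no filter, 6 without the trend, 2 with the actin ratio (where 5 others were called) and 11 with the hepatocyte level. The cause was not tested. Signs turned for uncalled members. Under median centring Apoa5 was -0.040, Apob 1457554_at -0.067 and Apoe -0.23. Under cyclic loess Apoa2 was 0.11 and Apoc1 0.029. With the actin ratio Apoa5 was -0.50 and Apoe -0.21. Apoe was -0.031 under quantile scaling, -0.013 with array weights and -0.010 with the hepatocyte level. With saline 1 and leptin 7 left out, a setting added after seeing the data, Apob 1457554_at was -0.33 and Apoe -0.056. On leaving out 1 pool, Apoa2 was -0.21 to 0.020, Apob 1457554_at -0.26 to 0.39, Apoe -0.098 to 0.072, the GAPDH ratio difference -0.0084 to 0.023 and the hepatocyte level difference -0.095 to 0.16. The share of probe sets above background was higher in leptin pools by 3.99 to 5.18 points, and the actin ratio by 0.202 to 0.368. No paired analysis was possible because the labels number saline pools 1 to 4 and leptin pools 5 to 8, with no shared number. With 4 pools a group, an exact test cannot go below p = 0.0286.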
